A study of Mus musculus with 7 samples.

Results

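The genes described here are 36 that mark the endothelial cells lining the vessels of the liver. They were chosen by gene symbol, from a list of receptors, junction proteins, secreted factors and regulators of these cells, and all 36 were found among the 12151 genes of the table and passed the filter of at least 1 CPM (reads scaled to a common library size) in at least 3 libraries, as 12105 genes did. RNA was sequenced from hepatocytes, the main metabolic cells of the liver, isolated from mouse liver: 3 wild-type libraries with no treatment (WT) and 4 libraries labelled ALAS1/2-KO. ALAS1/2-KO stands for a conditional Alas1 allele whose exons 4 and 5 can be removed by Cre, a tamoxifen treatment, and an injected siRNA against Alas2 linked to GalNAc, a sugar that hepatocytes take up. Genotype, tamoxifen and siRNA coincide in these 4 libraries and cannot be told apart, and the sources used here do not give the age, sex and strain of the mice or the promoter that drives Cre. The labels do not say that each replicate is a separate mouse, and the p-values below speak only for the spread among these 7 libraries, part of which may be technical. Endothelial cells are not the labelled cell type, and their transcripts in these libraries lie beside a far larger hepatocyte signal.

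Liver sinusoids are lined by endothelial cells with open pores and little basement membrane, so that plasma reaches hepatocytes directly. These cells clear waste from blood through scavenger receptors, make coagulation factor VIII, and release BMP2 and BMP6, which set how much hepcidin hepatocytes make. Larger liver vessels carry a more usual, continuous endothelium, in which proteins such as CD34 are more abundant than in healthy sinusoids.

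Both aminolevulinate synthase genes, which the labels name, were read first. Alas2, the erythroid form, stood at 16.9, 10.3 and 6.65 CPM in the WT libraries and 0.333, 0.8001, 0.428 and 0.198 CPM in the ALAS1/2-KO libraries, listed here and below by replicate number (log2 fold change -4.51, SE 0.46, limma adjusted p = 0.0027). Alas2 passed the filter only through the WT libraries, where it was high, so its call is not taken as a check of the labels. A list of 6 erythroid markers, Alas2 among them, was lower too, with a median log2 fold change of -2.28. The part of red cell RNA in the fall of Alas2 was not tested. Alas1, the form of most tissues, stood at 279.6, 265 and 83.5 CPM in the WT libraries and 287, 332, 307 and 361 CPM in the ALAS1/2-KO libraries. It did not pass (adjusted p = 0.277), and a value for the whole gene does not check a deletion of 2 exons. Depth was 22916097 to 34048680 listed reads in the WT libraries and 27933939 to 30195635 in the others, where a single read equals 0.0293 to 0.0522 CPM. The lowest member value, Cd34 in ALAS1/2-KO replicate 1, rested on 9 reads.

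To show the control regions of genes on which the results turn, the bases before the transcription start are given for Emcn, which had the smallest p-value of the members after Nrp1, and for Clec4g and Stab2, abundant sinusoidal genes. They are from RefSeq, build GRCm38.p6 (mm10), 5′ to 3′ on the gene's strand, at most 250 bases and only those outside the GENCODE gene. Capitals mark GGAA or its reverse complement TTCC, the core bound by ETS factors, a family of regulators of endothelial genes. The positions are chr3:137340828-137341066 (plus strand) for Emcn, chr8:3720652-3720901 (minus) for Clec4g and chr10:87008026-87008192 (minus) for Stab2. The window before the RefSeq start of Nrp1 lies inside its GENCODE gene and is not shown.
Emcn: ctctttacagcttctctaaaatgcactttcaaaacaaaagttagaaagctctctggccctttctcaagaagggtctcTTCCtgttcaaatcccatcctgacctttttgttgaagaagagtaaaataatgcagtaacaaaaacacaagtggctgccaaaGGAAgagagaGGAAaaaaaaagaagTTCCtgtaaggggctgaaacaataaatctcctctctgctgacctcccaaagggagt
Clec4g: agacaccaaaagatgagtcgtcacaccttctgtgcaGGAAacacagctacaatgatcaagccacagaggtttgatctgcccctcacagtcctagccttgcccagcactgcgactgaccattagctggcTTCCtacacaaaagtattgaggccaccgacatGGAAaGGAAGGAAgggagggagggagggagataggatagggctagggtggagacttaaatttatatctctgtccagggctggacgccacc
Stab2: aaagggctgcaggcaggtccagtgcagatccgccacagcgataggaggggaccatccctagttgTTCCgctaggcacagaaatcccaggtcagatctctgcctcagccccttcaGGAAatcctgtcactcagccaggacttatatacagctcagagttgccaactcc

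The core occurred 4 times in the stretch before Emcn, 5 before Clec4g and 2 before Stab2, counting both strands. Of 23 members with a window of 250 bases in the RefSeq table, 22 (95.7%) held GGAA, against 93.4% of 32536 windows of the same length, so these 4 letters do not set the members apart. The GATA motif AGATAA was in 0 of the 23 and in 9.97% of all windows. The SOX motif ACAAT was in 8 of the 23 (34.8%) and in 27.4% of all windows. Both strands were searched, each motif on its own whether or not its matches overlapped those of another, and a match of letters is not a binding site.

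The 36 genes moved together from library to library. In WT they summed to 1124, 994 and 1211 CPM, and in ALAS1/2-KO to 248, 541, 1014 and 780.1 CPM in replicates 1 to 4. The median member stood at 18.1% of its WT mean in ALAS1/2-KO replicate 1, 45.5% in replicate 2, 87.8% in replicate 3 and 62.4% in replicate 4. Replicate 1 was the lowest of the 7 libraries for 35 of 36 members (97.2%), against 24.1% of all genes tested, the exception being Nrp1. The order replicate 1, 2, 4, 3 from low to high held for 33 of 36 members (91.7%), against 11.8% of all genes. ALAS1/2-KO replicate 3 stood at 0.80 (Nrp1) to 6.96 (Plvap) times the level of replicate 1, with a median of 4.62, while the highest WT library stood at 1.32 times the lowest at the median. In bulk RNA, fewer endothelial cells and less RNA per cell cannot be told apart. Nor can fewer such cells in the liver be told from fewer carried over when the hepatocytes were isolated.

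**Figure D1:**
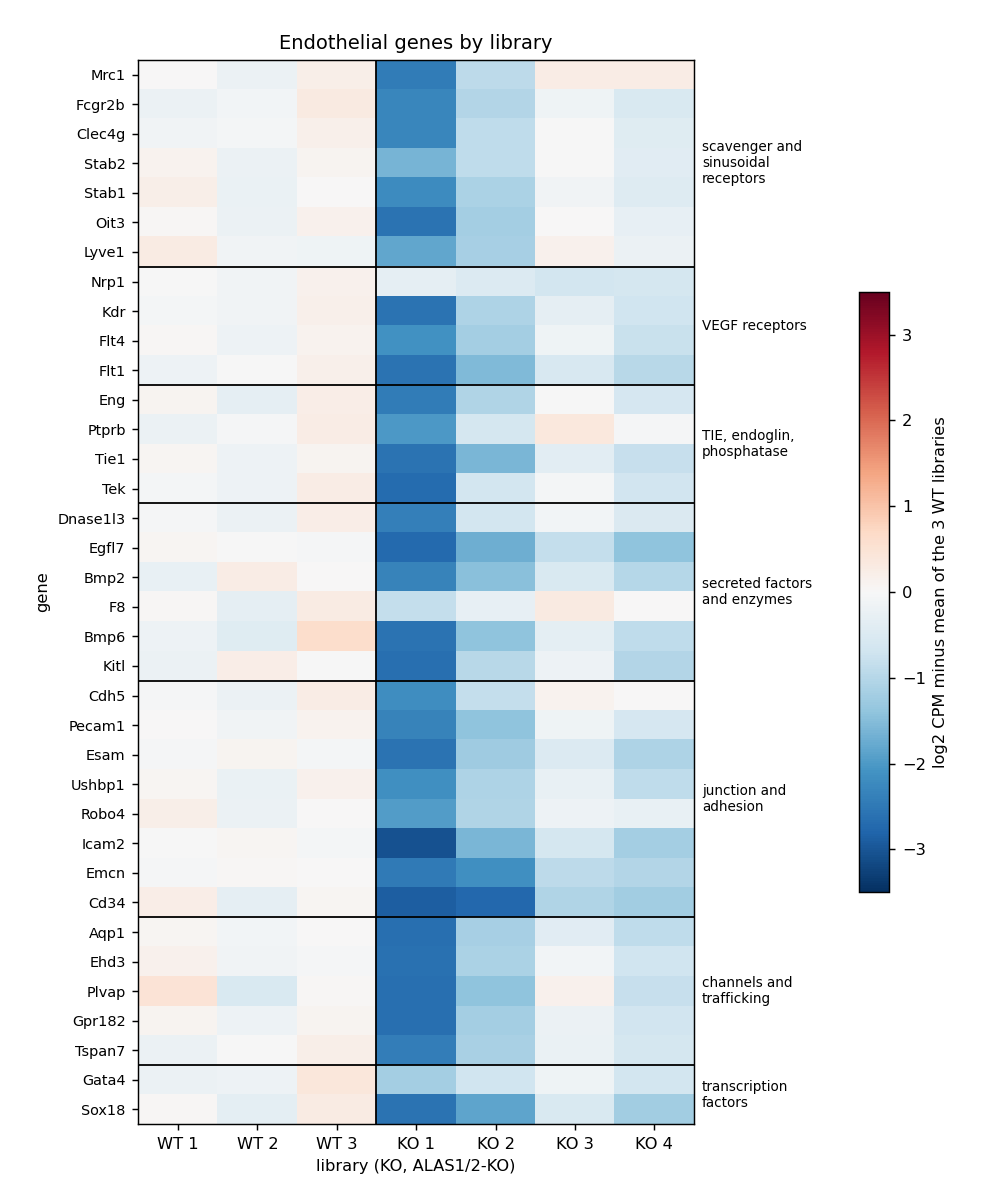
Each cell shows log2 CPM of a gene (rows, grouped by role) in a library (columns, WT 1 to 3 and KO, that is ALAS1/2-KO, 1 to 4) minus the mean of the 3 WT libraries. ALAS1/2-KO replicate 1 is the darkest blue column for nearly every gene, replicate 3 is near WT, and Nrp1 is a row apart.

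Summed markers of Kupffer, stellate and lymphoid cells and of neutrophils and platelets were also lowest in ALAS1/2-KO replicate 1, those of bile ducts and red cells were not, and the part of any of them in the endothelial values was not tested. Kupffer cell markers, from resident macrophages, summed to 1447 to 1904 CPM over WT and 437, 1095, 2244 and 2069 CPM in ALAS1/2-KO replicates 1 to 4, with replicate 1 lowest of the 7 libraries for 19 of 19 tested, and limma and voom called 0 of them (1 at an unadjusted p under 0.05). Stellate cell markers, from the pericytes of the sinusoid, summed to 418 to 751 CPM over WT and 102, 207, 465 and 329.9 CPM in ALAS1/2-KO replicates 1 to 4, with replicate 1 lowest for 24 of 24, and 1 (Nes) fell. Lymphocyte markers summed to 170.3 to 221 CPM over WT and 53.2, 221, 347 and 297 CPM in ALAS1/2-KO replicates 1 to 4, with replicate 1 lowest for 11 of 11, and 1 (Cd79a) fell. Bile duct markers summed to 39.98 to 52.1 CPM over WT and 53.7, 46.7, 30.96 and 36.7 CPM in ALAS1/2-KO replicates 1 to 4, so replicate 1 was the highest library, with replicate 1 lowest for 1 of 5, and 1 (Spp1) fell. Erythroid markers summed to 18.9 to 53.03 CPM over WT and 5.14, 8.71, 4.06 and 8.71 CPM in ALAS1/2-KO replicates 1 to 4, with replicate 1 lowest for 1 of 6, and 2 fell (Alas2 and Hbb-bt). Alas2 is the target of the siRNA and part of these sums, so its fall is no measure of red cells. Nes, Hbb-bt and Cd79a passed the filter only through the WT libraries, where they were higher, so nothing is read from their falls. Neutrophil and platelet markers summed to 17.7 to 21.6 CPM over WT and 5.38, 10.002, 16.9 and 13.9 CPM in ALAS1/2-KO replicates 1 to 4, with replicate 1 lowest for 3 of 5, and limma and voom called 0 of them (3 at an unadjusted p under 0.05). Hepatocyte markers summed to 143035 to 149190 CPM over WT and 98286 to 109513 CPM over ALAS1/2-KO, and replicate 1 was lowest for 1 of 20 (Alb fell, log2 fold change -0.87, SE 0.11, limma adjusted p = 0.00606).

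The lists did not keep 1 ratio across the ALAS1/2-KO libraries. As medians of log2 CPM over the WT mean, the endothelial members stood at -2.45, -1.12, -0.17 and -0.67 in replicates 1 to 4, and the Kupffer markers at -2.19, -0.63, 0.37 and 0.28. The stellate markers stood at -2.66, -1.50, -0.36 and -0.89 and the hepatocyte markers at 0.20, -0.01, -0.02 and 0.04. In replicates 3 and 4, therefore, Kupffer markers lay above the WT mean at the median while endothelial and stellate markers lay below it. WT replicate 2 itself stood at -0.17 for the endothelial members and -0.47 for the stellate markers. ALAS1/2-KO replicate 3 was thus level with that library for the endothelial members and within the WT range for the stellate markers. Clec4f, a Kupffer cell lectin, stood at 249, 177 and 233 CPM in the WT libraries and 51.04, 139, 291 and 273 CPM in the ALAS1/2-KO libraries. Defining markers of some other cells were not among the genes of the table, namely Krt19, Krt7 and Epcam of bile ducts, Cd3e of T cells, Ms4a1 of B cells and Vwf of larger vessels. Mitochondrially encoded genes took 31.9% to 43.2% of reads in WT and 16.8% to 27.3% in ALAS1/2-KO, lowest in replicate 1.

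**Figure D2:**
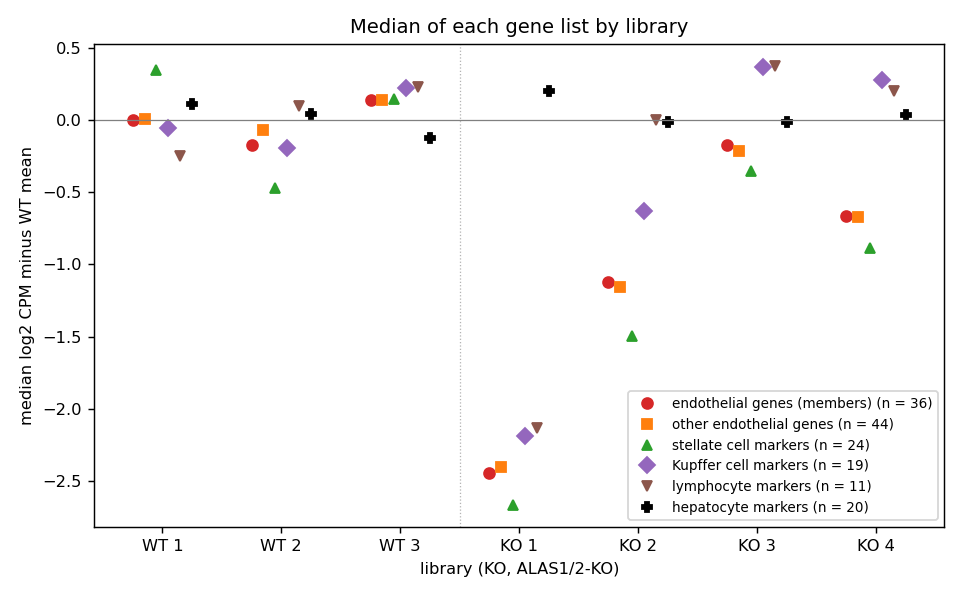
Points give, for each library on the x axis, the median over a gene list of log2 CPM minus the WT mean, with n the genes tested in each list. Endothelial members, other endothelial genes and stellate markers lie below the WT mean in all 4 ALAS1/2-KO libraries, and Kupffer markers in replicates 1 and 2. Stellate markers in ALAS1/2-KO replicate 3 lie within the range of the WT libraries, and hepatocyte markers stay near 0.

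Against WT, the log2 fold change was negative for all 36 members, as for 52.0% of all genes, and 1 member passed the test. The median member stood at -1.10 (2.14-fold lower), against -0.02 over all genes tested, and the range ran from -1.98 (Cd34) to -0.21 (F8). In limma over the whole table, 1 of 36 members fell (2.78%) and 0 rose, beside 2.19% of all genes that fell, so the share called is near the background. At an unadjusted p under 0.05, 18 of 36 (50.0%) were lower, against 11.9% of all genes. The groups did not overlap for 16 of 36 (44.4%), all lower in ALAS1/2-KO, against 11.4% of all genes. These shares over all genes, 11.9% and 11.4%, are also the background for the counts of lower genes by role and by list. The median SE was 0.48, and the median SD on the log2 scale was 0.96 over the ALAS1/2-KO libraries against 0.21 over WT. Over all genes 617 changed, 57.1% of them upward, and that share was 92.6% with CPM rescaled to listed reads and 42.4% when scaled without the most abundant and mitochondrial genes.

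Without ALAS1/2-KO replicates 1 and 2, the libraries with the lowest endothelial values, more members passed although the differences were smaller. The median log2 fold change was then -0.42, and 9 of 36 members fell (25%) and 0 rose, against 4.67% of all genes that fell. These were Aqp1, Bmp2, Cd34, Egfl7, Emcn, Esam, Flt1, Icam2 and Nrp1. Without replicate 1 alone 8 fell (22.2%), against 3.41% of all genes, and all 8 were among these 9, Cd34 being the other. Cd34 passed the filter only with the WT libraries, where it was higher, so nothing is read from its call. The choice of libraries left out rests on the same values, so these counts describe which genes were also lower in the libraries nearest to WT.

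**Figure D3:**
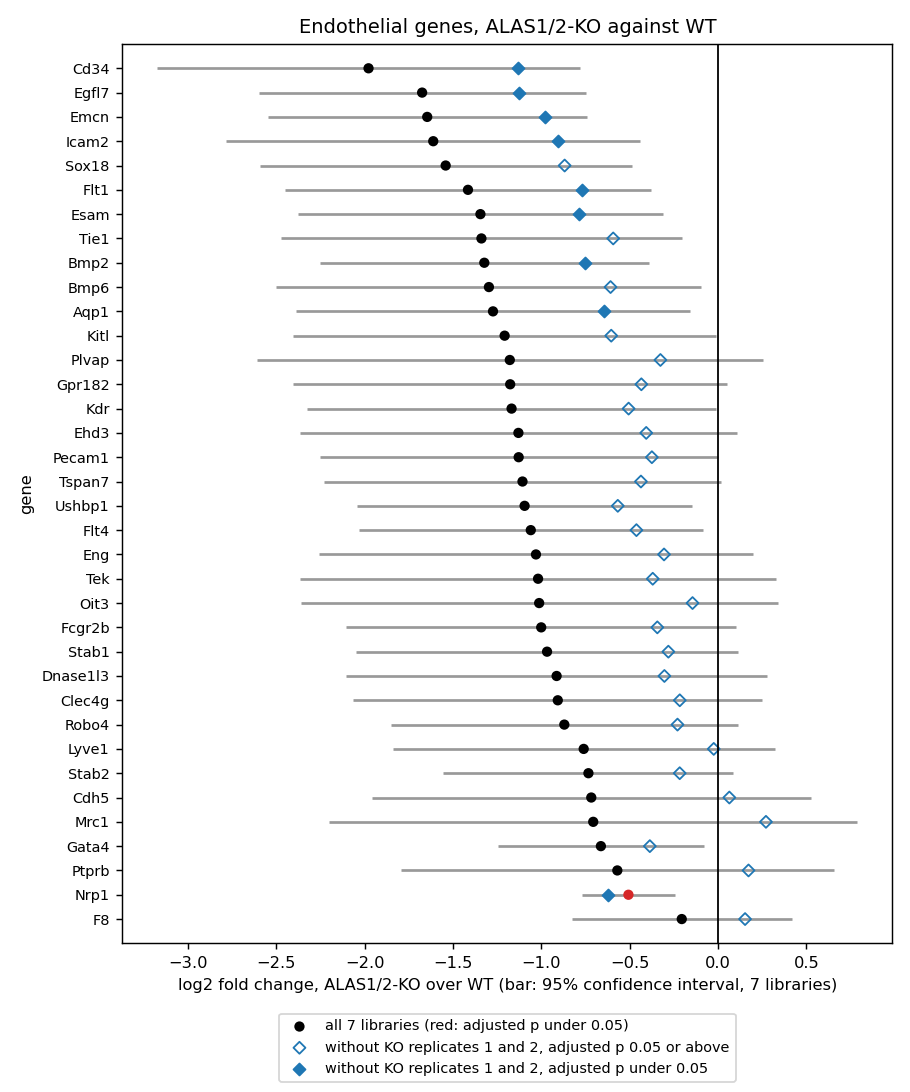
For each gene, the dot is the log2 fold change of ALAS1/2-KO over WT in 7 libraries with its 95% confidence interval, and the diamond is the value without ALAS1/2-KO replicates 1 and 2. All 36 dots lie below 0 and Nrp1 alone is red, and 9 diamonds are filled (adjusted p under 0.05).

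Receptors for waste and ligands from blood were near the WT level in ALAS1/2-KO replicate 3 and far below it in replicate 1. Stab2 (ENSMUSG00000035459.18, chromosome 10, 86841198 to 87008025, minus strand), a scavenger receptor for hyaluronan, stood at 59.6, 47.4 and 58.7 CPM in the WT libraries and 17.8, 29.9, 53.9 and 41.4 CPM in the ALAS1/2-KO libraries. Its groups overlapped and it did not pass (log2 fold change -0.73, SE 0.35, limma adjusted p = 0.255). Clec4g, a lectin of sinusoidal cells, stood at 52.98, 55.2 and 64.4 CPM in the WT libraries and 11.6, 30.7, 56.6 and 42.9 CPM in the ALAS1/2-KO libraries. Lyve1, a hyaluronan receptor of sinusoids and lymphatics, stood at 14.8, 10.99 and 10.8 CPM in the WT libraries and 3.36, 5.32, 13.5 and 10.4 CPM in the ALAS1/2-KO libraries, and replicate 3 lay above the WT mean. Oit3, a secreted protein of sinusoidal cells, stood at 34.03, 28.9 and 36.8 CPM in the WT libraries and 5.47, 14.6, 33.2 and 26.9 CPM in the ALAS1/2-KO libraries. For these 3 genes the interval of the log2 fold change ran from -2.06 to 0.25 (Clec4g), -1.84 to 0.32 (Lyve1) and -2.36 to 0.34 (Oit3), so neither no change nor a large fall is outside it.

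Stab1, a related stabilin that macrophages also make, stood at 53.9 ± 8.33 CPM over the WT libraries and 31.2 ± 16.5 CPM over the ALAS1/2-KO libraries (SD, n = 3 and 4, as below). Fcgr2b, the inhibitory Fc receptor that clears immune complexes, stood at 66.9 ± 12.98 CPM over the WT libraries and 37.7 ± 19.5 CPM over the ALAS1/2-KO libraries. Mrc1, the mannose receptor, which Kupffer cells share, stood at 78.9, 68.5 and 90.3 CPM in the WT libraries and 14.4, 41.5, 95.1 and 94.9 CPM in the ALAS1/2-KO libraries. Its values in replicates 3 and 4 exceeded every WT library, and without replicates 1 and 2 its log2 fold change turned from -0.71 to 0.27 (adjusted p = 0.253). Of these 7 receptors limma called 0, voom (a count-based form of limma) called 0, and 0 had an unadjusted p under 0.05.

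Among the VEGF receptors, Nrp1 followed a course of its own. Nrp1 (ENSMUSG00000025810.9, chromosome 8, 128358604 to 128503363, plus strand), a co-receptor for VEGF and semaphorins that cells other than endothelium also make, stood at 46.4, 42.8 and 52.1 CPM in the WT libraries and 37.7, 33.9, 30.3 and 30.7 CPM in the ALAS1/2-KO libraries. Every ALAS1/2-KO library lay below every WT library, replicate 1 was the highest of the 4, and the spread was small. It fell 1.42-fold (log2 fold change -0.51, SE 0.11, limma adjusted p = 0.0425). The call did not hold without any single WT library (adjusted p = 0.112, 0.120 and 0.101 without replicates 1, 2 and 3) or without ALAS1/2-KO replicate 2, 3 or 4 (0.0754, 0.0884 and 0.0964). With CPM rescaled to listed reads the value was -0.17 (adjusted p = 0.461).

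Kdr, VEGF receptor 2 and the main signalling receptor of the family, stood at 43.4, 41.8 and 50.7 CPM in the WT libraries and 7.47, 21.4, 36.2 and 27.9 CPM in the ALAS1/2-KO libraries, with no overlap between the groups. It did not pass (log2 fold change -1.17, SE 0.49, limma adjusted p = 0.208). Flt1, VEGF receptor 1, which binds VEGF tightly and limits its action, stood at 12.5, 14.01 and 15.8 CPM in the WT libraries and 2.298, 4.77, 9.504 and 7.09 CPM in the ALAS1/2-KO libraries. It did not pass with 7 libraries (log2 fold change -1.41, SE 0.44, limma adjusted p = 0.117) and was -0.77 (adjusted p = 0.0226) without replicates 1 and 2. Flt4, the receptor for VEGF-C, stood at 32.3 ± 3.33 CPM over the WT libraries and 17.3 ± 9.11 CPM over the ALAS1/2-KO libraries, and its groups overlapped. All 4 of these genes had an unadjusted p under 0.05, and limma and voom each called 1 (Nrp1). Per kilobase of exon, the WT order was Nrp1 (13.1 ± 1.303 CPM per kb), Kdr (7.64 ± 0.801), Flt4 (5.17 ± 0.533) and Flt1 (1.29 ± 0.154).

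The TIE receptors and their partners had 0 of 4 called by limma and by voom, and 1 of 4, Tie1, at an unadjusted p under 0.05. Tie1, an orphan partner of the angiopoietin receptor, stood at 14.4, 12.1 and 14.6 CPM in the WT libraries and 2.24, 4.46, 10.5 and 7.75 CPM in the ALAS1/2-KO libraries. All 4 ALAS1/2-KO values were below WT (log2 fold change -1.34, SE 0.48, limma adjusted p = 0.158). Tek, the angiopoietin receptor TIE2, stood at 9.56 ± 1.51 CPM over the WT libraries and 5.601 ± 3.15 CPM over the ALAS1/2-KO libraries, and Eng (endoglin), a co-receptor for BMP9, at 46.1 ± 8.77 CPM over the WT libraries and 26.3 ± 15.3 CPM over the ALAS1/2-KO libraries. Ptprb, the phosphatase VE-PTP that dampens TIE2, stood at 25.7, 29.3 and 35.5 CPM in the WT libraries and 7.38, 19.4, 38.9 and 29.1 CPM in the ALAS1/2-KO libraries. Replicate 3 was the highest of the 7 libraries for Ptprb, and without replicates 1 and 2 its log2 fold change was 0.17 (adjusted p = 0.5599).

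Secreted factors held both Egfl7, with a fold difference among the largest of the list, and F8, with the smallest. Egfl7 (ENSMUSG00000026921.18, chromosome 2, 26580014 to 26593120, plus strand), a matrix protein that endothelial cells deposit around forming vessels, stood at 22.5, 21.4 and 21.1 CPM in the WT libraries and 3.21, 6.55, 12.04 and 8.08 CPM in the ALAS1/2-KO libraries. WT was tight, and ALAS1/2-KO replicate 3 reached only 55.6% of the WT mean. It missed the threshold with 7 libraries (log2 fold change -1.67, SE 0.39, limma adjusted p = 0.0591) and was -1.13 (adjusted p = 0.00402) without replicates 1 and 2. Bmp2, an inducer of hepcidin, stood at 17.7, 25.4 and 21.3 CPM in the WT libraries and 4.17, 7.72, 14.8 and 10.7 CPM in the ALAS1/2-KO libraries (log2 fold change -1.32, SE 0.40, limma adjusted p = 0.109), with no overlap, and was -0.75 (adjusted p = 0.034) without those libraries. Bmp6, the main hepcidin inducer of these cells, was low, at 2.66, 2.22 and 4.69 CPM in the WT libraries and 0.454, 1.11, 2.38 and 1.62 CPM in the ALAS1/2-KO libraries, and its groups overlapped.

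F8, coagulation factor VIII, stood at 8.72, 6.79 and 10.3 CPM in the WT libraries and 4.69, 6.96, 10.5 and 8.48 CPM in the ALAS1/2-KO libraries. It was the member with the smallest difference (log2 fold change -0.21, SE 0.27, limma adjusted p = 0.683), and only replicate 1 lay under the lowest WT library. Dnase1l3, a secreted nuclease that digests chromatin in blood, stood at 58.04, 52.4 and 70.8 CPM in the WT libraries and 11.4, 38.04, 56.4 and 41.8 CPM in the ALAS1/2-KO libraries. Kitl, stem cell factor, stood at 2.64 ± 0.429 CPM over the WT libraries and 1.3002 ± 0.788 CPM over the ALAS1/2-KO libraries. Of the 6 secreted members limma called 0, voom 1 (Egfl7), and 4 had an unadjusted p under 0.05.

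Of the 8 junction and adhesion genes, 6 had all ALAS1/2-KO values below the lowest WT value, and Cdh5 and Robo4 overlapped. The same held for 16 of the 36 members and 11.4% of all genes. Cdh5, VE-cadherin of endothelial junctions, stood at 42.7, 38.1 and 53.5 CPM in the WT libraries and 9.797, 24.96, 48.1 and 44.7 CPM in the ALAS1/2-KO libraries, so replicates 3 and 4 lay within the WT range. Its log2 fold change was -0.72 with 7 libraries (adjusted p = 0.453) and 0.06 (adjusted p = 0.824) without replicates 1 and 2. Pecam1, the adhesion protein CD31, stood at 22.3, 20.6 and 24.1 CPM in the WT libraries and 4.32, 8.34, 19.99 and 14.8 CPM in the ALAS1/2-KO libraries, and Robo4, a guidance receptor that stabilises vessels, at 13.9 ± 1.95 CPM over the WT libraries and 8.39 ± 4.09 CPM over the ALAS1/2-KO libraries. Ushbp1, of less studied function, stood at 15.6 ± 2.19 CPM over the WT libraries and 7.99 ± 3.92 CPM over the ALAS1/2-KO libraries.

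Cd34 (ENSMUSG00000016494.9, chromosome 1, 194938819 to 194961279, plus strand), a sialomucin, stood at 2.92, 1.98 and 2.58 CPM in the WT libraries and 0.272, 0.308, 1.16 and 1.02 CPM in the ALAS1/2-KO libraries. It had the largest fold difference of the 36, 3.94-fold lower (log2 fold change -1.98, SE 0.52, limma adjusted p = 0.0711), and passed with voom (log2 fold change -2.10, adjusted p = 0.0443). In ALAS1/2-KO only replicates 3 and 4 reached 1 CPM. Cd34 thus passed the filter only with the WT libraries, where it was higher, and nothing is read from its fall. Emcn (chromosome 3, 137341067 to 137432185, plus strand), endomucin, stood at 5.06, 5.28 and 5.18 CPM in the WT libraries and 0.877, 1.11, 2.69 and 2.51 CPM in the ALAS1/2-KO libraries and also passed with voom (-1.70, adjusted p = 0.0329), but not in limma (log2 fold change -1.65, SE 0.39, limma adjusted p = 0.0518). Icam2, an adhesion molecule for leukocytes, stood at 5.64, 6.03 and 5.45 CPM in the WT libraries and 0.635, 1.85, 3.698 and 2.44 CPM in the ALAS1/2-KO libraries. Esam, of tight junctions, stood at 16.1, 17.6 and 15.9 CPM in the WT libraries and 2.72, 6.99, 11.9 and 7.72 CPM in the ALAS1/2-KO libraries. None of the values of Cd34, Emcn, Icam2 and Esam in ALAS1/2-KO reached a WT library. Without replicates 1 and 2 they were -1.13 (adjusted p = 0.0341), -0.98 (adjusted p = 0.0127), -0.91 (adjusted p = 0.0301) and -0.78 (adjusted p = 0.0253). Of the 8 junction and adhesion members limma called 0, voom 2 (Cd34 and Emcn), and 6 had an unadjusted p under 0.05.

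Aqp1, the water channel, was the most abundant member per length, at 33.6 ± 1.93 CPM per kb in WT, followed by Clec4g (23.7 ± 2.499), Plvap (19.4 ± 6.64) and Ehd3 (18.9 ± 1.904), and the gaps from Plvap to both neighbours were within its spread. Aqp1 stood at 92.4, 82.6 and 89.8 CPM in the WT libraries and 14.2, 39.02, 67.1 and 47.4 CPM in the ALAS1/2-KO libraries, lower in every ALAS1/2-KO library (log2 fold change -1.27, SE 0.48, limma adjusted p = 0.168), and at -0.64 (adjusted p = 0.0312) without replicates 1 and 2. Bile duct cells and red cells also make Aqp1. Gpr182, an orphan receptor that scavenges chemokines, stood at 38.9, 32.2 and 39.4 CPM in the WT libraries and 5.84, 15.97, 31.8 and 23.2 CPM in the ALAS1/2-KO libraries. Ehd3, a membrane trafficking protein, stood at 68.99 ± 6.97 CPM over the WT libraries and 37.3 ± 21.8 CPM over the ALAS1/2-KO libraries, Plvap, the diaphragm protein of fenestrae and caveolae, at 38.5 ± 13.2 CPM over the WT libraries and 20.4 ± 14.98 CPM over the ALAS1/2-KO libraries, and Tspan7, a tetraspanin, at 22.5 ± 3.29 CPM over the WT libraries and 11.9 ± 6.28 CPM over the ALAS1/2-KO libraries. Of these 5 genes limma and voom called 0, and 1 (Aqp1) had an unadjusted p under 0.05.

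Both transcription factors of the list were scarce. Sox18, a regulator of vessel and lymphatic development, stood at 4.28, 3.25 and 5.12 CPM in the WT libraries and 0.635, 1.11, 2.87 and 1.75 CPM in the ALAS1/2-KO libraries, with no overlap (log2 fold change -1.54, SE 0.46, limma adjusted p = 0.0982). Gata4, which specifies the sinusoidal state and is also made by stellate cells, stood at 7.93, 8.02 and 11.98 CPM in the WT libraries and 3.99, 5.601, 8.28 and 5.87 CPM in the ALAS1/2-KO libraries (log2 fold change -0.66, SE 0.25, limma adjusted p = 0.166). Limma and voom called 0 of these 2, and both had an unadjusted p under 0.05.

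To separate the shared course of the libraries from differences between genes, each of the 26 members outside a defining set was set against that set. The set held Stab2, Lyve1, Clec4g, Oit3, Gpr182, Dnase1l3, Kdr, Cdh5, Pecam1 and Tie1. Values are log2 CPM minus the WT mean, less the median of the same over these 10 genes in that library, a description chosen after the data were seen and given with no test. By this measure 5 of 26 members (19.2%) were lower in ALAS1/2-KO with no overlap and 2 (7.69%) were higher. Over all genes tested the shares were 0.884% and 30.2%, but the subtraction raises every gene that does not follow the defining genes, so these shares follow from how the measure is built and nothing is read from them.

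The 5 lower ones were Cd34, Egfl7, Icam2, Sox18 and Flt1, and 4 of them were among the 9 called without replicates 1 and 2. Both sets rest on the same values, so this overlap is no support for either. For 2 of the 5 the gap between the groups was narrow. Flt1 stood at -0.206 in ALAS1/2-KO replicate 1 against -0.191 in WT replicate 1, and Sox18 at -0.215 against -0.163 in WT replicate 2. Cd34 stood at -0.53, -1.63, -0.99 and -0.75 in ALAS1/2-KO replicates 1 to 4, a mean 1.98 times below WT. As Cd34 passed the filter only with the WT libraries, nothing is read from its place here. Egfl7 stood at -0.36, -0.59, -0.78 and -0.95 (1.601 times below) and Icam2 at -0.67, -0.47, -0.56 and -0.73 (1.53 times). Icam2 was thus shifted by a like amount in the library with little endothelial RNA and in the one nearest to WT. The 2 higher ones were Ptprb, at 0.36, 0.51, 0.44 and 0.43 (1.34 times above WT), and F8, at 1.53, 0.84, 0.36 and 0.47 (1.73 times). Ptprb was level across the 4 libraries, whereas F8, Gata4 (1.19, 0.42, -0.08 and -0.16) and Nrp1 (2.05, 0.65, -0.57 and -0.14) were highest where the defining genes were lowest. The subtraction by itself raises most, in replicate 1, any gene that follows the defining genes less, so nothing is read from this order. Before it, Nrp1 stood at -0.32, -0.47, -0.63 and -0.61 against the WT mean. Eng, Fcgr2b, Stab1 and Tspan7 stayed within 0.2 of 0 in each ALAS1/2-KO library.

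**Figure D4:**
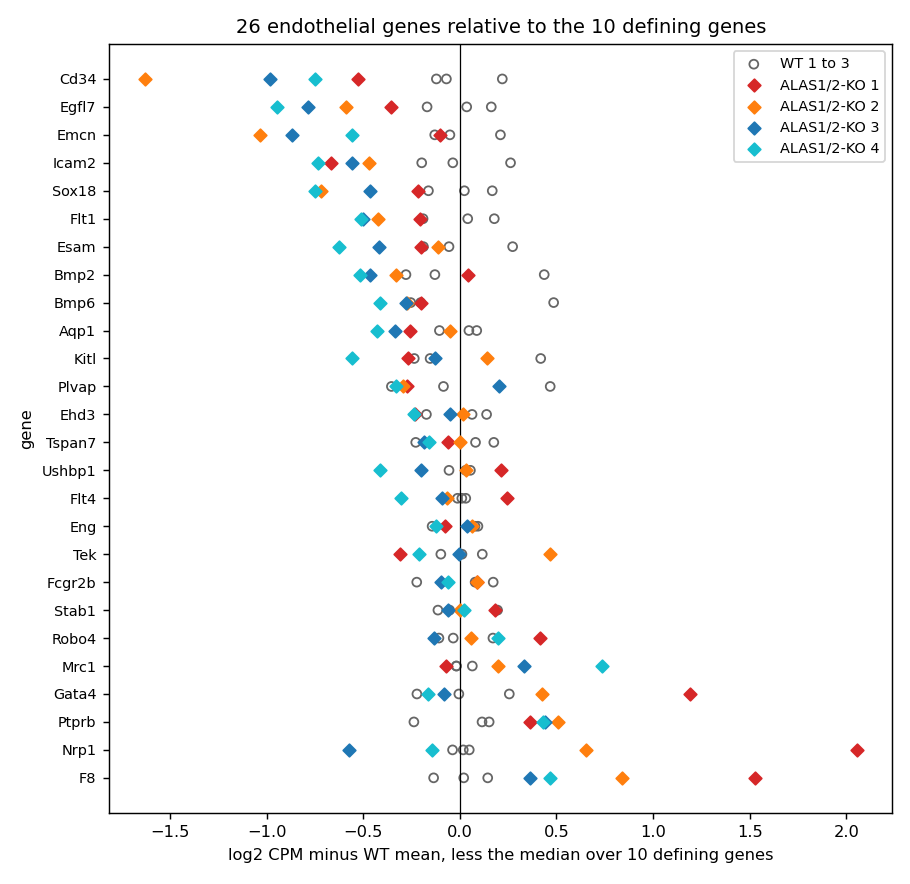
For 26 genes (rows), the x axis gives log2 CPM minus the WT mean, less the median over the 10 defining genes of that library, with open circles for WT and coloured diamonds for ALAS1/2-KO 1 to 4. Cd34, Egfl7, Icam2, Sox18 and Flt1 lie to the left of the circles, Ptprb and F8 to the right, and Nrp1 and Gata4 are spread widely.

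Other endothelial genes, which are not members, followed the same libraries. Of 44 tested in a list of 54, 4 fell and 1 rose, with a median log2 fold change of -1.12, and ALAS1/2-KO replicate 1 was lowest for 43. Over all genes 265 of 12105 fell and 352 rose, and replicate 1 was lowest for 24.1%. Tm4sf1, a membrane protein of endothelial cells, stood at 9.34, 7.502 and 8.49 CPM in the WT libraries and 0.937, 2.15, 2.48 and 2.18 CPM in the ALAS1/2-KO libraries (log2 fold change -2.17, SE 0.32, limma adjusted p = 0.0111). S1pr1, the sphingosine phosphate receptor that keeps vessels tight, stood at 31.7, 39.7 and 48.8 CPM in the WT libraries and 17.2, 25.2, 21.2 and 17.8 CPM in the ALAS1/2-KO libraries (log2 fold change -0.97, SE 0.18, limma adjusted p = 0.0257), and like Nrp1 it varied little among the ALAS1/2-KO libraries. Ecscr, a regulator of endothelial motility, and Ctla2a also fell (log2 fold change -1.58 and -1.78, limma adjusted p = 0.0434 and 0.0460). Ctla2a stood at 0.917 and 0.792 CPM in ALAS1/2-KO replicates 3 and 4. It therefore passed the filter only with the WT libraries, where it was higher, so nothing is read from its fall. Ly6c1 stood at 0.365, 0.397 and 0.146 CPM in the WT libraries and 1.87, 2.31, 1.07 and 1.22 CPM in the ALAS1/2-KO libraries (log2 fold change 2.20, SE 0.44, limma adjusted p = 0.0303). It passed the filter of 1 CPM in 3 libraries only through the ALAS1/2-KO libraries, where it was high, so nothing is read from this rise. As a member of a family of near-identical genes, its reads are also uncertain.

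Without ALAS1/2-KO replicates 1 and 2, 11 of these 44 fell and 3 rose, Ctla2a among the former and Ly6c1 among the latter. Over all genes 565 of 12105 fell (4.67%) and 565 rose. Here too the libraries left out were chosen from values already seen. Cldn5, the claudin of tight endothelial junctions, fell from 7.695 CPM in WT to 2.66 and 1.98 CPM in replicates 3 and 4 (log2 fold change -1.69, limma adjusted p = 0.00335). Calcrl, Cd93, Podxl and Rasip1 also fell (log2 fold change -0.92, -0.95, -0.84 and -0.98). Vcam1, an adhesion molecule for leukocytes that Kupffer cells also make, rose from 27.6 to 78.8 and 86.2 CPM (limma adjusted p = 0.0136), and Clec1b, a podoplanin receptor, rose by 0.57 on the log2 scale (0.0425). In the same fit 4 of 19 Kupffer markers rose (Adgre1, Cd163, Cd5l and Ctss) and 3 of 24 stellate markers fell (Cygb, Nes and Tcf21). Of 11 lymphocyte markers 4 rose and 3 fell. The part of these cells in the endothelial values was not tested.

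Of 20 further endothelial transcription factors, 1 fell and 0 rose. This was Nr2f2 (COUP-TFII), which specifies veins and is made by stellate cells too, at 22.4, 28.1 and 29.5 CPM in the WT libraries and 12.9, 19.8, 17.6 and 14.9 CPM in the ALAS1/2-KO libraries (log2 fold change -0.72, SE 0.16, limma adjusted p = 0.0446). Of 10 ligands of the endothelial receptors limma called 0, voom 0, and 4 had an unadjusted p under 0.05 (3 lower, 1 higher). Vegfa, the ligand of Kdr and Flt1, made largely by hepatocytes, stood at 207, 227 and 282 CPM in the WT libraries and 226, 234, 187 and 211 CPM in the ALAS1/2-KO libraries, with overlapping groups (log2 fold change -0.15, SE 0.14, limma adjusted p = 0.547). Gdf2 (BMP9), the ligand of endoglin and a stellate cell product, stood at 20.6, 10.8 and 16.1 CPM in the WT libraries and 2.75, 5.75, 17.2 and 14.3 CPM in the ALAS1/2-KO libraries. Among 14 BMP and TGF-beta targets 1 rose, Hamp2, from 2.15 to 7.83 CPM (limma adjusted p = 0.0218), and 0 fell. The call of Hamp2 did not hold with voom (log2 fold change 1.75, adjusted p = 0.0725). Hamp, hepcidin itself, stood at 38.99, 179.6 and 181 CPM in the WT libraries and 179.8, 202, 117 and 89.8 CPM in the ALAS1/2-KO libraries (log2 fold change 0.37, SE 0.58, limma adjusted p = 0.737). Its lowest library was WT replicate 1, whereas Bmp2 and Bmp6 were lowest in ALAS1/2-KO replicate 1.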

How the data were processed

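RNA of 7 libraries (3 WT, 4 ALAS1/2-KO) was prepared with the TruSeq kit, per the labels' protocols. Per the submitters' processing notes, cutadapt and HISAT2 were used with build mm10. Their versions, the read counter, the strand setting and the annotation were not given in the sources used here. The authors deposited log2 CPM under a name that says CPM. Taken off the log2 scale and less a floor of 0.0676 CPM, 100% of values were whole multiples of 1 step per library within 0.01 reads, which gave reads and depth. CPM in the text are these floor-free values, and every gene in the table reached 0.5 CPM in 3 libraries, so scarcer genes were not analysed here. Fold changes are on the deposited log2 scale, whose prior understates those of scarce genes.

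Genes with at least 1 CPM in 3 libraries were tested on the deposited log2 values with limma 3.58.1 in R 4.3.3 (intensity trend, robust moderation, no covariate, two-sided). P-values were adjusted by Benjamini-Hochberg over 12105 genes, and an adjusted p under 0.05 counted as called. The test was checked on simulated data. Positions and exon lengths are from GENCODE M21. Members, lists and alternatives were chosen with earlier results of these data known, and no test was run on a score over the members. Genes were named by rule: every member, with all 7 values for called and defining members and the extremes, and up to 4 called genes or the 2 most abundant of other lists; further per-library values were chosen after they were seen. Alternatives were other priors, filters, scalings and variance models, array weights, voom on recovered reads, a replicate block, and libraries left out.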

Additional observations from a re-analysis of the deposited data

Results flagged for a closer look

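Tm4sf1, an endothelial gene outside the 36, had 1 ALAS1/2-KO library far from the other 3. Replicate 1 stood at 0.937 CPM against 2.15, 2.48 and 2.18 CPM in replicates 2, 3 and 4, a gap of 0.855 of the range of the 4 on the log2 scale, above the 95% critical value of Dixon's test for 4 samples. Such a gap was looked for in 72 sets of 4 libraries and found in this 1, and chance alone would give about 1 in 20. Of the 36 members 0 had such a gap.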

How the results depend on the processing

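The direction of 32 of the 36 members was the same in each of the 19 alternatives run. F8 turned positive with CPM rescaled to listed reads (0.13), with array weights (0.17), without ALAS1/2-KO replicate 1 (0.0077, and down to -0.38 without another library) and without replicates 1 and 2 (0.15), and in that last fit Cdh5 (0.064), Mrc1 (0.27) and Ptprb (0.17) did too. The median of the members ran from -1.38 to -0.42. The members called, 1 with all libraries, were 4 with log2(CPM + 1), 3 with log2(CPM + 0.5), 3 with CPM rescaled to listed reads, 5 with quantile normalization, 4 with array weights, 4 with limma voom, 9 without ALAS1/2-KO replicates 1 and 2, and 0 without trend and robust moderation (16 at an unadjusted p under 0.05). Without 1 library they were 0 to 8, the highest without ALAS1/2-KO replicate 1 and 0 without any 1 WT library or ALAS1/2-KO replicate 2 or 4 (9 to 18 at an unadjusted p under 0.05). All genes called, 617, became 2735 with CPM rescaled to listed reads, 2001 with array weights, 355 without trend and robust moderation, 1130 without ALAS1/2-KO replicates 1 and 2, and 100 to 802 without 1 library. Rescaling to listed reads moved the median of all genes to 0.32, and relative to it the members stood at -1.08, as with the deposited scaling. The cause of these changes was not tested.

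The labels do not say whether libraries with the same replicate number are paired. Deviations from the group means correlated across genes at -0.03, 0.05 and 0.18 for numbers 1, 2 and 3, and WT replicate 2 correlated best with ALAS1/2-KO replicate 1 (0.36). With so few libraries per group these correlations cannot settle whether they were paired. With a replicate block, in which ALAS1/2-KO replicate 4 has no partner and drops out, 72 genes and 0 members were called (26 members at an unadjusted p under 0.05, adjusted p from 0.108). The planned edgeR test was not run, because the deposited values are log2 CPM. Depth limits Cd34, Kitl, Bmp6, Icam2 and Sox18, with 9, 12, 15, 21 and 21 reads in ALAS1/2-KO replicate 1.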
